A study of Mus musculus with 12 samples.

Results

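The heat shock and J-domain chaperone genes were taken as every gene name in the count tables that begins with Dnaj, Hspa, Hspd1, Hspe1, Hsph1 or Hsp90, or with Hspb and a digit. They were 80 of 44345 gene names. The J-domain proteins made up 47 of them, as 5 Dnaja, 13 Dnajb and 29 Dnajc names. The HSP70 family, counted with its relative Hsph1, held 15 names, the small heat shock proteins (Hspb) 8, the mitochondrial chaperonin Hspd1 and its partner Hspe1 with their copies 7, and the HSP90 family 3. Of the 80, 8 are annotated as pseudogenes. The names follow nomenclature, so a few members are no chaperones by role, among them Hspb11, an intraflagellar transport protein.

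RNA was sequenced from sciatic dorsal root ganglia (DRG), the clusters of sensory neuron cell bodies beside the spinal cord, of C57BL/6 mice aged 5 to 8 weeks after 10 days in their housing. Groups of 3 libraries each came from large neurons captured by laser after an enriched environment (captured EE), captured large neurons after standard housing (captured SH), whole ganglia after the enriched environment (whole EE) and whole ganglia after standard housing (whole SH). No allele or drug is named for any group, and the whole-ganglion count columns carry the word Sham, whose meaning is not given in the sources used here. Each captured library held neurons with a diameter of 30 µm or more, taken from stained 16 µm sections of 3 mice, and whole-ganglion libraries held the pooled ganglia of 2 mice each.

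Chaperones of the HSP70 family bind unfolded stretches of other proteins and release them in a cycle driven by ATP. J-domain proteins bring clients to HSP70 and set off its ATP hydrolysis, nucleotide exchange factors such as the HSP110 protein Hsph1 end the cycle, and HSP90 takes over late folding steps of kinases and receptors. Small heat shock proteins hold unfolded proteins without using ATP, and human mutations in HSPB1 cause an inherited neuropathy of the long axons. Heat shock factors switch on many of these genes through heat shock elements, alternating GAA and TTC units, while chaperones of the endoplasmic reticulum are switched on by a separate pathway through the endoplasmic reticulum stress element.

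In captured neurons, no chaperone gene passed the threshold for a housing effect, and most had their higher values in EE. The smallest p-values were those of the J-domain protein gene Dnajb4 (1.34-fold) and the small heat shock protein gene Hspb1 (1.23-fold), followed by Dnajb1, Dnajc8, Hspe1, Hspd1 and Hspa8. The widest log2 fold change was that of the barely detected Dnajc22 (0.61, SE 0.48). In whole ganglia, Dnajb4, Hspb1, Hspe1, Dnajb1 and Hspd1 had log2 fold changes below 0 and Hspa8 one of 0.02. Of 64 members tested in captured neurons and 66 tested in whole ganglia, 0 had an adjusted p under 0.05 in either preparation (edgeR's quasi-likelihood F-test, Benjamini-Hochberg adjusted over all genes tested). In captured neurons, 0.0185% of all genes tested passed, and in whole ganglia 0.00631%. At an unadjusted p under 0.05 the count was 13 in captured neurons, where 15.9% of all genes had one, and 0 in whole ganglia, where 2.9% had one. With DESeq2 the adjusted count was 2 of the 55 members given an adjusted p in captured neurons (3.64%, against 4.43% of all genes) and 0 in whole ganglia.

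Whole-ganglion libraries held between 11343579 and 17036481 reads in genes, and captured libraries between 19296230 and 29434351. Whether libraries of one group came from separate mice is not in the labels, so each p reflects library-to-library spread, part of which may be technical. Levels are given as CPM, counts scaled to library size with factors from the trimmed mean of M-values, and log2 fold changes, which also stand in parentheses with their SE after a gene's levels, are EE over SH. In captured neurons, the summed levels of cell type markers also differed with housing. Fewer cells of a type and less RNA per cell cannot be told apart in these bulk libraries. The summed CPM of 12 markers of large-diameter neurons ran from 11003 to 14923 in EE and from 8561 to 10598 in SH, with 11 of 12 markers higher in EE and a median log2 fold change of 0.45. Summed nociceptor markers (12 genes) ran from 3011 to 3778 CPM in EE and from 3853 to 4621 CPM in SH. Of these, 10 of 12 were lower in EE, with a median log2 fold change of -0.48. None of these neuron markers passed the threshold. At an unadjusted p under 0.05 there were 9 of 12 large-diameter and 9 of 12 nociceptor markers (edgeR quasi-likelihood test). Of all genes, 15.9% had such a p. Satellite glia markers (8 genes) ran from 2738 to 2991 CPM in EE and from 2177 to 2442 CPM in SH, and myelinating Schwann cell markers (8 genes) from 915 to 1184 CPM in EE and from 1037 to 1296 CPM in SH. Of the satellite glia markers 7 of 8 were higher in EE, and Fabp7 was the single marker past the threshold (0.80, adjusted p = 0.0322, edgeR's quasi-likelihood F-test). General sensory neuron markers ran from 5933 to 6051 CPM in EE and from 5281 to 5519 CPM in SH, while those of fibroblasts, endothelium with mural cells, macrophages and erythrocytes overlapped between groups. Marker sums also differed in whole ganglia. Sensory neuron markers ran from 8400 to 8599 CPM in EE and from 8857 to 8987 CPM in SH, with 8 of 8 lower in EE. Large-diameter neuron markers ran from 13665 to 14358 CPM in EE and from 14792 to 15782 CPM in SH, with 6 of 12 lower. Sums of the other marker lists overlapped there, with 1 of 8 satellite glia, 6 of 6 erythrocyte and 14 of 14 skeletal muscle markers higher in EE. No marker in these lists was at 0 in all captured libraries, and the part of the markers in the chaperone values was not tested. Captured SH replicate 2 stood apart in 14 skeletal muscle markers, with summed levels of 36.5 to 97.0 CPM in EE and 42.2 to 926 CPM in SH. Myh4, a muscle myosin, measured 1.55, 2.69 and 1.47 CPM in captured EE libraries and 334 CPM in that SH library, with 0.807 and 1.24 CPM in the other captured SH libraries.

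**Figure D1:**
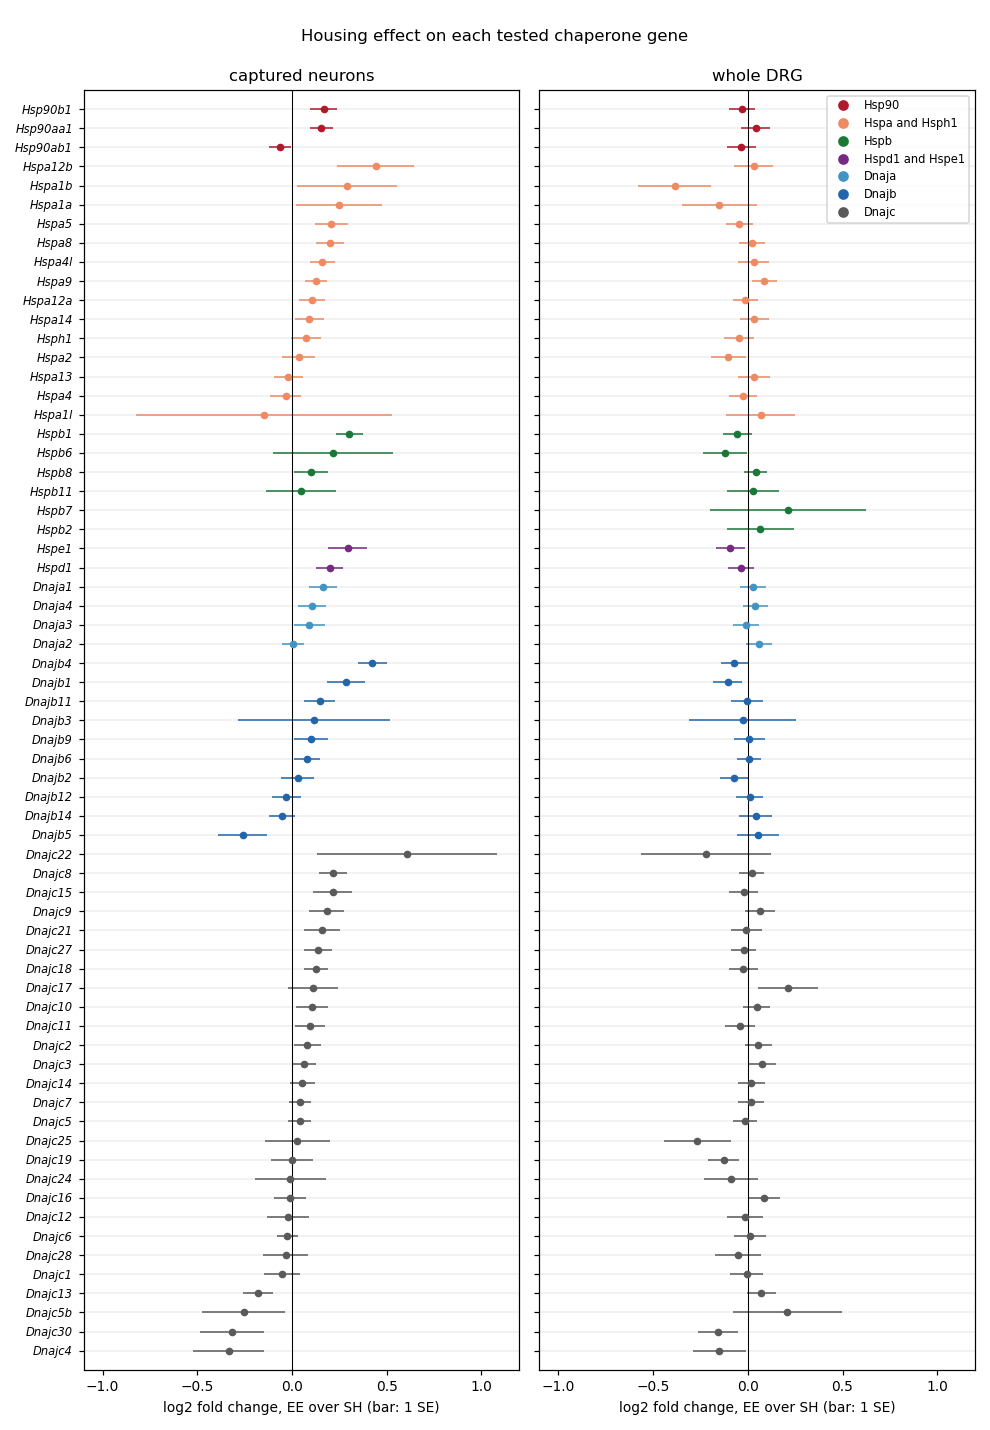
Log2 fold change, EE over SH (x axis, bars 1 SE), of each tested chaperone gene (rows, coloured by family and ordered within a family by the captured value) in captured neurons (left) and whole DRG (right). In captured neurons 46 of 64 points lie right of 0 with Dnajb4 at 0.42, and in whole DRG 32 of 66 do.

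Read as one set, the members of captured neurons leaned to EE. The log2 fold change was above 0 in 46 of 64 tested members (71.9%), against 49.9% of all 16186 genes tested, and its median was 0.093, against -0.00059 over all genes tested. All 3 EE libraries lay above all 3 SH libraries in 16 members (25.0%), where 10.2% of all genes tested did so, and below them in 5 members (7.81%), against 10.9% of all genes. At an unadjusted p under 0.05, 12 members were higher in EE, where 7.3% of all genes were, and 1, Dnajc13, was lower, where 8.62% were. Together they were 20.3% of the 64, against 15.9% of all genes. At an adjusted p under 0.1 there was 1 member, Dnajb4, where 0.655% of all genes passed. The median of all members was above 0 in each EE library and higher than in any SH library, as the plot of family medians shows. Without captured SH replicate 2, members above 0 numbered 48 of the 65 that then passed the filter, Hspb2 included, and 2 had an unadjusted p under 0.05, where 9.33% of all genes had one. Of the 64 members tested with all libraries, 19 then had all EE libraries above the remaining SH libraries, where 13.2% of all genes did, and 6 had them below, where 13.7% did. Without captured EE replicate 1 and within sequencing lane 3 alone, the median over the same 64 members was 0.068 and 0.061. Captured EE replicate 1 was sequenced on lane 1, captured SH replicate 2 on lane 2, and all other captured libraries on lane 3. Lanes 1 and 2 thus each held captured libraries of a single housing, and there lane and housing cannot be told apart.

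The 80 members held 1.80, 1.68 and 1.72% of the reads in genes in captured EE libraries, against 1.63, 1.55 and 1.63% in captured SH libraries, with no overlap; an exact two-sided permutation test of 3 against 3 libraries cannot give a p under 0.1. Without Hspa8, Hsp90aa1 and Hsp90ab1, which hold 54.3 to 55.9% of the members' reads in captured EE and 54.3 to 55.1% in captured SH, the share was 0.796, 0.767 and 0.780% in EE and 0.731, 0.707 and 0.743% in SH. In whole ganglia the members' share was 1.32, 1.25 and 1.34% in EE and 1.27, 1.31 and 1.35% in SH, and the groups overlapped.

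**Figure D2:**
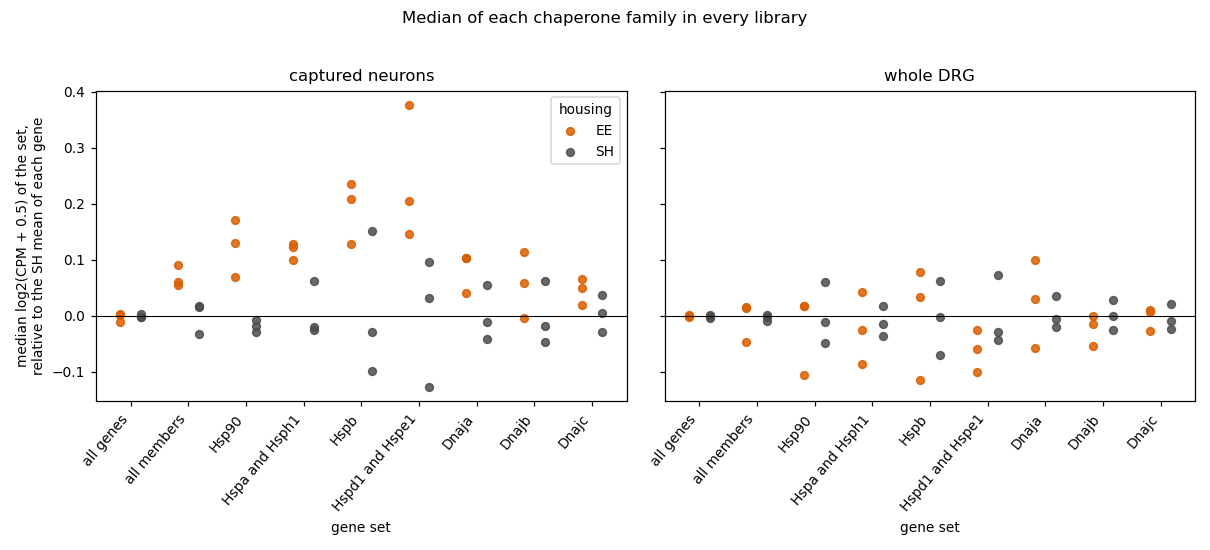
Median over the genes of each family of log2(CPM + 0.5) relative to the gene's SH mean (y axis), one point per library, EE left of SH, in captured neurons (left) and whole DRG (right). In captured neurons the EE points of all members, Hsp90, the HSP70 group (Hspa and Hsph1) and the pair Hspd1 and Hspe1 lie above the SH points, and in whole DRG the housing groups overlap in every family.

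Dnajb4, which works with HSP70 in the cytosol, measured 93.6, 98.4 and 96.6 CPM in the captured EE libraries, against 73.6, 64.9 and 76.6 CPM in the captured SH libraries. The EE libraries stood close together, and the lowest of them lay well above the highest SH library. The log2 fold change was 0.42 (SE 0.076) and the adjusted p 0.0898 (edgeR's quasi-likelihood F-test, Benjamini-Hochberg adjusted over all genes tested). Dnajb4 passed the threshold with DESeq2 (adjusted p = 0.000651), with no filter on low counts (edgeR quasi-likelihood test, adjusted p = 0.000114), without captured EE replicate 1 (adjusted p = 0.0201) and within lane 3 alone (adjusted p = 0.00746), settings in which 4.43%, 2.48%, 3.64% and 4.06% of all genes passed. Over all alternatives its log2 fold change ran from 0.36 to 0.47 and its adjusted p from 0.000114 to 0.378. In whole ganglia Dnajb4 measured 70.9, 66.9 and 70.7 CPM in the EE libraries, against 77.3, 74.1 and 67.5 CPM in the SH libraries, with overlapping groups.

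Dnajb4 lies on chromosome 3 from 152178511 to 152210302 on the minus strand (GRCm38). The 250 bases before its RefSeq start (GRCm38.p6), at chr3:152193846-152194095, are an intron of longer GENCODE transcripts, and they are shown because they hold a heat shock element of 2 units, in capitals, whose first base stands 14 bases before the start.
Dnajb4: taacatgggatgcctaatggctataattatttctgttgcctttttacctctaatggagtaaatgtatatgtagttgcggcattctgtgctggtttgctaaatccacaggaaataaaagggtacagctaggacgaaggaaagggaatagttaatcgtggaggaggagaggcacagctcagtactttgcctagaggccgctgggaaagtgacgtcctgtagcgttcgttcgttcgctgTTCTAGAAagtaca

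Dnajb1, the main heat-inducible J-domain protein of the cytosol (HSP40), measured 32.3, 30.6 and 28.2 CPM in the captured EE libraries, against 23.4, 23.5 and 28.0 CPM in the captured SH libraries. All EE values were above all SH values, though EE replicate 3 and SH replicate 3 nearly met. Its log2 fold change was 0.29 (SE 0.098). In whole ganglia the sign was the other way, with 52.4, 59.4 and 60.3 CPM in the EE libraries, against 58.6, 62.5 and 64.4 CPM in the SH libraries, and the groups overlapped. In the type A family, Dnaja1 had a log2 fold change of 0.16 (SE 0.073) in captured neurons with overlapping groups, Dnaja4 one of 0.11, and Dnaja2 was level, with 235, 235 and 231 CPM in the captured EE libraries, against 237, 232 and 229 CPM in the captured SH libraries. That family had a median of 0.098, with 4 of 4 above 0.

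Not all J-domain genes leaned to EE. In captured neurons Dnajc4 had the lowest log2 fold change of all members tested, -0.33 (SE 0.19), with overlapping groups. It measured 4.39, 3.35 and 3.12 CPM in the captured EE libraries, against 4.79, 4.28 and 4.71 CPM in the captured SH libraries. Dnajb5 measured 6.55, 6.91 and 6.47 CPM in the captured EE libraries, against 7.86, 7.82 and 8.17 CPM in the captured SH libraries, so that every EE library lay below every SH library (-0.26, SE 0.13). Dnajc13, a J-domain protein of endosomes, measured 277, 267 and 279 CPM in the captured EE libraries, against 282, 346 and 305 CPM in the captured SH libraries (-0.18, SE 0.079). Dnajc6, auxilin, which with HSP70 strips clathrin coats from vesicles in neurons, differed by little (-0.03, SE 0.056), yet its groups also did not overlap. Dnajc30, a mitochondrial member, was the single gene with all EE libraries below all SH libraries in both preparations, a feature chosen after the values were seen. It measured 3.24, 3.66 and 3.53 CPM in the captured EE libraries, against 4.03, 4.24 and 4.71 CPM in the captured SH libraries, and in whole ganglia 12.4, 14.0 and 13.9 CPM in the EE libraries, against 14.8, 16.0 and 14.3 CPM in the SH libraries, with log2 fold changes of -0.32 and -0.16. Dnajc5b was the fifth with all EE values below, from 1.88 to 2.40 CPM in EE and from 2.47 to 3.01 CPM in SH.

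The large Dnajc family, whose proteins share little beyond the J domain, was the most evenly split, with 16 of 27 above 0 and a median of 0.041. Dnajc8, linked to splicing, measured 108, 101 and 102 CPM in the captured EE libraries, against 95.9, 82.1 and 90.0 CPM in the captured SH libraries (0.21, SE 0.074), again without overlap. Dnajc9, Dnajc15 and Dnajc18 were the other Dnajc members with all EE libraries above, with log2 fold changes of 0.18, 0.21 and 0.13. Dnajc5, the synaptic vesicle protein CSP alpha that protects nerve terminals, was level with a log2 fold change of 0.04 (SE 0.060), and the neuronal Dnajb2, mutated in an inherited human motor neuropathy, at 0.03 (SE 0.086). Dnajb had a median of 0.089, with 7 of 10 above 0.

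Hspa8 (HSC70), the everyday cytosolic HSP70, measured 4128, 3520.2 and 3539 CPM in the captured EE libraries, against 3325, 3091 and 3309 CPM in the captured SH libraries. All EE libraries lay above all SH libraries, with EE replicate 1 furthest out, and the log2 fold change was 0.20 (SE 0.074). Over all alternatives it ran from 0.090 to 0.25. In whole ganglia Hspa8 measured 2585, 2486 and 2749 CPM in the EE libraries, against 2409.8, 2521 and 2770.2 CPM in the SH libraries, and the groups overlapped. Hspa4l, an HSP110 relative that exchanges nucleotide on HSP70, had a log2 fold change of 0.16 (SE 0.066) in captured neurons with all EE libraries above, while Hspa4 (-0.03, SE 0.082) and Hsph1 (0.07, SE 0.079) overlapped between groups.

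The stress-inducible HSP70 copies were low and noisy. Hspa1b measured 11.7, 6.60 and 5.14 CPM in the captured EE libraries, against 6.45, 5.93 and 6.93 CPM in the captured SH libraries. The highest EE library lay above all SH values and the lowest EE library below all of them. Hspa1a measured 4.80, 4.77 and 4.64 CPM in the captured EE libraries, against 4.03, 2.73 and 5.22 CPM in the captured SH libraries. The log2 fold changes were 0.29 (SE 0.26) for Hspa1b and 0.25 (SE 0.23) for Hspa1a. In whole ganglia Hspa1b had the lowest log2 fold change of all members, -0.39 (SE 0.19), from 4.41, 3.91 and 4.65 CPM in the EE libraries, against 5.42, 7.22 and 4.35 CPM in the SH libraries. The copies share sequence: 47.1% of the 100-base windows of the longest Hspa1a transcript occur unchanged in Hspa1b and 49.9% the other way, so reads may have been divided or dropped between them. Summed, they had log2 fold changes of 0.27 in captured neurons and -0.28 in whole ganglia. Hspa12b, a divergent HSP70 known from endothelium, had 3.45, 4.01 and 3.67 CPM in captured EE libraries and 2.57, 2.35 and 3.26 CPM in captured SH libraries (0.44, SE 0.20), without overlap, while 10 endothelial and mural markers summed to 318 to 449 CPM in EE and 404 to 477 CPM in SH. Of these markers, 7 of 10 had a log2 fold change above 0, with a median of 0.14, and their part in the Hspa12b value was not tested. Its relative Hspa12a had a log2 fold change of 0.11 (SE 0.069). The HSP70 group as a whole had 11 of 14 above 0 and a median of 0.118.

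The cytosolic HSP90 genes had log2 fold changes of opposite sign in captured neurons. Hsp90aa1, the inducible form, measured 3521, 3282 and 3634 CPM in the captured EE libraries, against 3208, 3064 and 3109 CPM in the captured SH libraries, with no overlap (0.15, SE 0.061). Hsp90ab1, the constitutive form, measured 2374, 2251 and 2329 CPM in the captured EE libraries, against 2331, 2522 and 2408 CPM in the captured SH libraries, with overlap (-0.06, SE 0.059). The ratio of Hsp90aa1 to Hsp90ab1 reads was 1.48, 1.46 and 1.56 in captured EE libraries and 1.38, 1.21 and 1.29 in captured SH libraries. In whole ganglia this ratio was 1.04, 0.871 and 0.919 in EE and 1.09, 0.833 and 0.793 in SH, and the groups overlapped. The ratio was chosen after the values were seen and is a description.

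**Figure D3:**
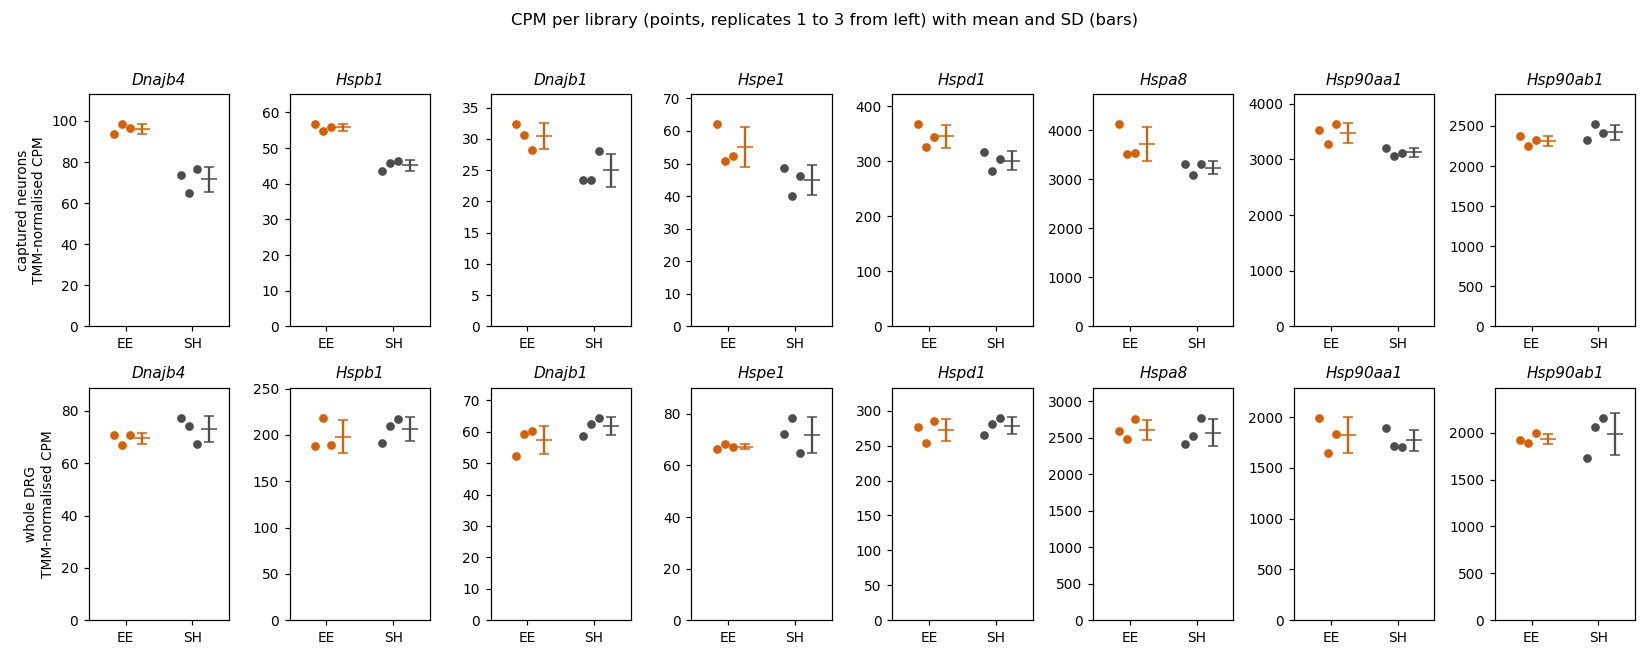
CPM per library (points) with mean and SD (bars) of 8 chaperone genes in captured neurons (top) and whole DRG (bottom), EE left of SH, each panel with its own y axis from 0. In captured neurons the EE points of every gene but Hsp90ab1 lie above the SH points, and in whole DRG the groups overlap in all 8.

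The mitochondrial chaperonin pair showed the highest family median in captured neurons, 0.246. Hspe1 (HSP10), the lid of the chaperonin, measured 62.1, 50.7 and 52.2 CPM in the captured EE libraries, against 48.7, 40.0 and 46.2 CPM in the captured SH libraries, and Hspd1 (HSP60), its barrel, 367, 326 and 343 CPM in the captured EE libraries, against 317, 282 and 305 CPM in the captured SH libraries. In both, all EE libraries lay above all SH libraries, and in both EE replicate 1 was the highest and SH replicate 2 the lowest. Log2 fold changes were 0.29 (SE 0.10) and 0.20 (SE 0.071), with adjusted p of 0.212 and 0.217 (edgeR's quasi-likelihood F-test, Benjamini-Hochberg adjusted over all genes tested). Within lane 3 alone the pair's median was 0.11. Log2 fold changes in whole ganglia were -0.09 for Hspe1 and -0.03 for Hspd1. Hspa9 (mortalin), the HSP70 of mitochondria, measured 392, 406 and 416 CPM in the captured EE libraries, against 379, 368 and 363 CPM in the captured SH libraries (0.13, SE 0.058), also without overlap, and its log2 fold change was 0.09 (SE 0.065) in whole ganglia.

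Hspe1 and Hspd1 lie head to head on chromosome 1, with RefSeq starts 216 bases apart. In GENCODE the span of Hspd1 reaches to 55088243, past the Hspe1 start at 55088132, so the stretch shown here lies within that span. The 30 bases at chr1:55088053-55088082 are shown, on the Hspe1 strand, because they hold the heat shock element that both genes share, a run of alternating TTC and GAA units in capitals.
Hspe1 and Hspd1: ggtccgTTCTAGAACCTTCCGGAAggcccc

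Hspa5 (BiP), the main HSP70 of the endoplasmic reticulum, measured 529.5, 440.1 and 444 CPM in the captured EE libraries, against 393, 386 and 445 CPM in the captured SH libraries. EE replicate 1 stood out, and SH replicate 3 lay within the EE range (0.21, SE 0.088). Hsp90b1 (GRP94), its HSP90, measured 564, 489 and 506 CPM in the captured EE libraries, against 456, 449 and 482 CPM in the captured SH libraries, without overlap (0.17, SE 0.070). Among the J-domain proteins of that compartment, log2 fold changes were 0.15 (SE 0.080) for Dnajb11, 0.10 (SE 0.086) for Dnajc10, 0.10 (SE 0.089) for Dnajb9 and 0.06 (SE 0.064) for Dnajc3, while Dnajc1 lay below 0 at -0.05 (SE 0.093), as did Dnajb12, Dnajb14 and the HSP70 relative Hspa13, at -0.03, -0.05 and -0.02. In whole ganglia Hspa5 and Hsp90b1 had log2 fold changes of -0.04 and -0.03.

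Stretches upstream of Hspa5, Hsp90b1 and Dnajc3 hold the endoplasmic reticulum stress element, searched on both strands as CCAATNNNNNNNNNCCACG. It occurred in the 250 bases before the start of 3 of the 58 members held by the table of RefSeq upstream sequences used here (5.17%), against 0.130% of 27025 genes. In captured neurons all 3 had log2 fold changes above 0 (median 0.17), as did 11 of 15 other genes with the element (median 0.11). Of other genes without it, 5520 of 10947 were above 0 (median 0.0016). In whole ganglia 1 of the 3 members and 1 of 14 other genes with the element were above 0. These groups were not tested. The sequences of Hspa5 (chr2:34772020-34772049, plus strand), Hsp90b1 (chr10:86705510-86705694, minus strand, which holds the element once in each orientation) and Dnajc3 (chr14:118937682-118937931, plus strand) are printed with the element in capitals. In Hspa5 the element lies within the first exon of the GENCODE transcript, whose start is upstream of the RefSeq one.
Hspa5: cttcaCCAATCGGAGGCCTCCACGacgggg
Hsp90b1: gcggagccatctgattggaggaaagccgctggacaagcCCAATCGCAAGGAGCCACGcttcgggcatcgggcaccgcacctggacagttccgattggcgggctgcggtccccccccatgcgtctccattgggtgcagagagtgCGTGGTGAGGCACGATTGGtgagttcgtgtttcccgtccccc
Dnajc3: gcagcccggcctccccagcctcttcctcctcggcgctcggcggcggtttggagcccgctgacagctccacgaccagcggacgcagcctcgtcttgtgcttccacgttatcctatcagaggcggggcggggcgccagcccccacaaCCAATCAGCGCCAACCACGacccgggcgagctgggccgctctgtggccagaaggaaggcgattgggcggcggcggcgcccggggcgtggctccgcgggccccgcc

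Of the small heat shock proteins, Hspb1 (HSP25 in the mouse) had the second smallest p among the members of captured neurons. It measured 56.7, 54.8 and 55.9 CPM in the captured EE libraries, against 43.5, 45.8 and 46.4 CPM in the captured SH libraries. The values within each group stood close together and the groups did not overlap, for a log2 fold change of 0.30 (SE 0.069) and an adjusted p of 0.124 (edgeR's quasi-likelihood F-test, Benjamini-Hochberg adjusted over all genes tested). It passed with DESeq2 (adjusted p = 0.0226) and with no filter (edgeR quasi-likelihood test, adjusted p = 0.0372), and its log2 fold change ran from 0.25 to 0.33 and its adjusted p from 0.0226 to 0.378 over all alternatives. In whole ganglia it measured 188, 218 and 189 CPM in the EE libraries, against 192, 209 and 217 CPM in the SH libraries, with overlap. Hspb8, which works with the cochaperone Bag3 in autophagy, had log2 fold changes of 0.10 (SE 0.089) in captured neurons and 0.04 (SE 0.062) in whole ganglia. Hspb6 was low and wide (0.22, SE 0.32). The median of the 4 Hspb members tested in captured neurons was 0.159. Over the same 4 it was 0.145 without captured EE replicate 1 and 0.13 within lane 3 alone, and Hspb8 and Hspb11 were then below 0.

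Hspb1 lies on chromosome 5 from 135887919 to 135889563 on the plus strand. The 250 bases before it, at chr5:135887669-135887918, hold 2 heat shock elements of 2 units, in capitals.
Hspb1: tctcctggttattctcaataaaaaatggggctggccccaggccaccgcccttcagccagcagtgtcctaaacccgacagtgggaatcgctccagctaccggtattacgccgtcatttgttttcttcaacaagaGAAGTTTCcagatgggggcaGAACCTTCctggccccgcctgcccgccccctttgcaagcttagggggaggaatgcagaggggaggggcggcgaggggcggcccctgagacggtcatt

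Hspb7, a small heat shock protein of heart and muscle, was not tested in captured neurons because its counts were low. It measured 0.203, 0.0508 and 0.138 CPM in the captured EE libraries, against 0.202, 1.69 and 0.414 CPM in the captured SH libraries, so that 1 SH library, replicate 2, held most of its reads, the library that also carried the muscle transcripts. With no filter on low counts it passed the threshold with a lower value in EE. In all, 16 members were not tested in captured neurons, with a highest count of 36, and 14 in whole ganglia, with a highest count of 8. Of these, 8 were pseudogenes in each preparation, and 8 members of the whole-ganglion table were at 0 in every library.

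In whole ganglia the members showed no lean. The log2 fold change was above 0 in 32 of 66 (48.5%), against 51.3% of all 15845 genes tested, with a median of -0.0057, against 0.0028 over all genes. Values ran from -0.39 (Hspa1b) to 0.21 (Dnajc17). After Hspa1b, the smallest p was that of Dnajc19 (-0.13, SE 0.083). Log2 fold changes were 0.09 (SE 0.083) for Dnajc16 and -0.10 (SE 0.092) for Hspa2. All EE libraries lay above all SH libraries in 0 members, where 3.19% of all genes did, and below in 2, Dnajc25 and Dnajc30 (3.03%, against 4.29% of all genes). At an unadjusted p under 0.05 there were 0 members, against 2.90% of all genes, and with each EE library paired to the SH library of its lane there were 0 members past the adjusted threshold and 0.202% of all genes.

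The difference between the housing effect in captured neurons and that in whole ganglia was tested as an interaction over all 12 libraries. Of 66 members, 0 passed (edgeR's quasi-likelihood F-test, Benjamini-Hochberg adjusted over all genes tested), as did 0% of all 17412 genes tested. At an unadjusted p under 0.05 the count was 7 members (10.6%), against 11.7% of all genes, and DESeq2 called 1 (Dnajb4, adjusted p = 0.0111), where it called 1.26% of all genes. Dnajb4 had the smallest p, with a difference of 0.48 (SE 0.11) on the log2 scale and an adjusted p of 0.158 (edgeR quasi-likelihood test). Without captured EE replicate 1 its adjusted p was 0.0328 in the same test, and over all alternatives it ran from 0.0111 to 0.398. Hspb1 (0.35, SE 0.10), Dnajb1 (0.38, SE 0.12) and Hspe1 (0.37, SE 0.13) followed, and Hspb7 and Dnajc13 were the members below 0 at an unadjusted p under 0.05. A differing housing effect between preparations was not shown for any member in the edgeR fit over all libraries.

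Levels per length place these genes among each other. In whole ganglia, by the authors' FPKM (reads scaled to gene length and library size), Hsp90ab1 was highest at 639 ± 19.8 in EE and 659.9 ± 77.4 in SH (SD, n = 3 each), and Hspa8 at 621 ± 32.1 in EE and 616 ± 47.0 in SH did not differ from it beyond that spread. Hsp90aa1 came next (459 ± 37.6 in EE, 449.5 ± 23.3 in SH). Hspb1 (190.4 ± 18.8 in EE, 199 ± 13.7 in SH) and Hspb8 (185 ± 4.40 in EE, 181 ± 5.67 in SH) followed and overlapped each other within their spread. Below them stood Hspa12a, Hspd1 and Hspa5, at 117, 105 and 90.7 FPKM in SH. The inducible Hspa1a and Hspa1b lay at 1.49 and 2.01 FPKM in SH.

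In captured neurons the same 3 genes led, and Hspb1 stood lower. In CPM per kilobase, with the gene lengths implied by the authors' FPKM, Hspa8 measured 892 ± 82.8 in EE and 776 ± 31.2 in SH, Hsp90aa1 880.2 ± 45.5 in EE and 791 ± 18.7 in SH, and Hsp90ab1 769 ± 20.6 in EE and 803 ± 31.9 in SH (SD, n = 3 each). Hspb1 lay at 53.8 ± 0.919 in EE and 43.6 ± 1.46 in SH. In standard housing, its CPM in captured neurons was 0.219 times that of whole ganglia, and the ratio was 0.487 for Hspb8, 0.148 for Hspb6, 0.130 for Hspa12b, 0.404 for Dnajb1 and 0.287 for Dnajc30. On the other side, Dnajc13 stood at 2.58, Hsp90aa1 at 1.76 and Dnajb14 at 1.71. Each table was scaled on its own and the library kits differed, RiboZero ScriptSeq for captured neurons and TruSeq mRNA for whole ganglia, and the effects of capture and of the kit cannot be told apart. These levels were not tested.

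**Figure D4:**
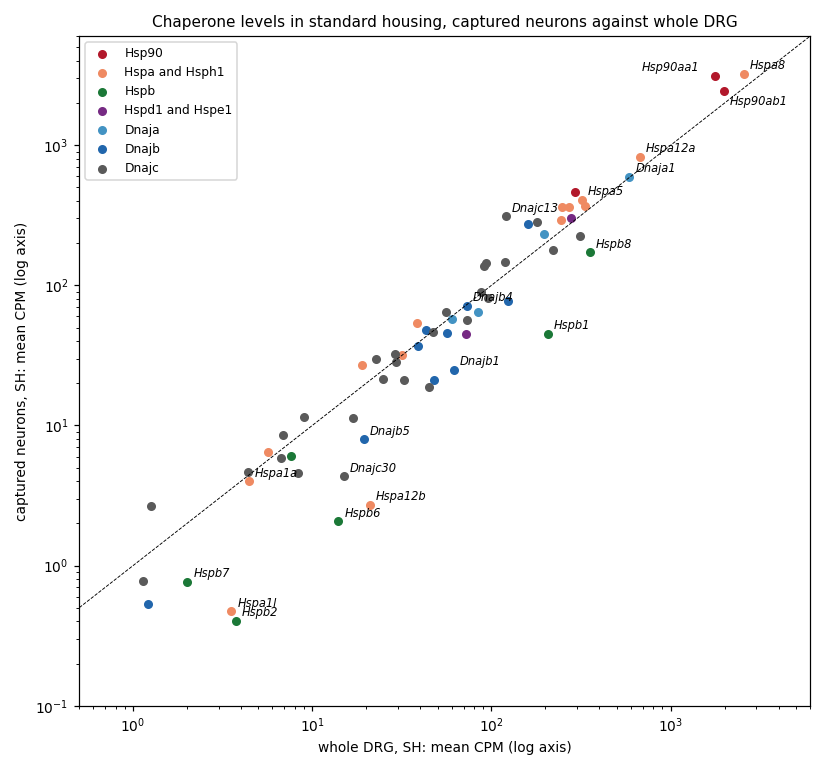
Mean CPM in standard housing of each member tested in whole DRG, captured neurons (y axis, log) against whole DRG (x axis, log), coloured by family, with a dashed line of equality. Hspa8, Hsp90aa1 and Hsp90ab1 sit at the top, and Hspb1, Hspb6, Hspb2, Hspa12b and Hspa1l lie below the line.

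The heat shock element was searched in the 250 bases before each RefSeq start, for the same 58 members. Tested in captured neurons but not searched were Hspa8, Hspa9, Hspa13, Hsp90aa1, Hsp90ab1, Dnajc2, Dnajc5, Dnajc5b, Dnajc11, Dnajc12, Dnajc18, Dnajc22 and Dnajc30. An element of 2 units was taken as GAANNTTC or TTCNNGAA, which read the same on both strands, and one of 3 units as GAANNTTCNNGAA on either strand, which contains the shorter form. The element of 3 units occurred in 3 of 58 members (Hspd1, Hspe1 and Dnajb6, 5.17%), against 0.514% of 27025 genes. That of 2 units occurred in 14 members (24.1%), against 14.5% of all genes: Dnaja1, Dnaja4, Dnajb4, Dnajb6, Dnajc10, Dnajc27, Hspa1a, Hspa1b, Hspb1, Hspb3, Hspb6, Hspd1, Hspe1 and Hsph1. A match of letters is a description and shows no binding.

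Of the members searched, all 13 that held the element of 2 units and were tested in captured neurons had a log2 fold change above 0, from 0.075 to 0.42 with a median of 0.20, against 25 of 38 searched and tested members without it, whose median was 0.051. Members without the element ran from -0.33 (Dnajc4) to 0.44 (Hspa12b), and Dnajb1, also without it, had a value of 0.29. Over other genes with the element, 694 of 1345 were above 0 with a median of 0.0051, and without it the median was 0.0014. In whole ganglia, 4 of 13 members with the element were above 0 with a median of -0.049, and 21 of 39 without it with a median of 0.0094. The 13 are not independent, since Hspd1 and Hspe1 share their element and the upstream stretches of Hspa1a and Hspa1b are identical at 98.8% of bases. Over the alternatives the captured median ran from 0.11 to 0.24, with Dnajc10 and Hspa1b below 0 without captured EE replicate 1 and within lane 3 alone, Hsph1 without SH replicate 1 and Hspb6 without SH replicate 3. No test was made.

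**Figure D5:**
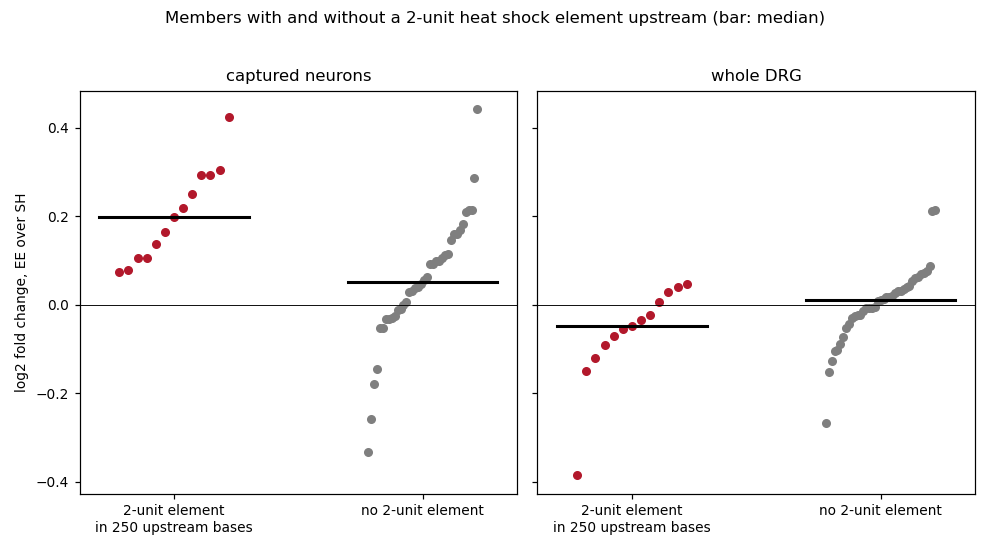
Log2 fold change, EE over SH (y axis), of members with and without a heat shock element of 2 units in the 250 upstream bases, in captured neurons (left) and whole DRG (right), sorted by value within each group, with a bar at the median. In captured neurons all 13 members with the element lie above 0, and in whole DRG 4 of 13 do.

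Partners of the chaperones were described from lists. HSP90 cochaperones leaned to EE in captured neurons, with 14 of 16 tested above 0 and a median of 0.137. At an unadjusted p under 0.05 there were 7, where 15.9% of all genes had one (edgeR quasi-likelihood test). Past the adjusted threshold there were 0, where 0.0185% of all genes passed. Ahsa1, the activator of the HSP90 ATPase, had 142, 140.2 and 133 CPM in EE, against 117, 98.0 and 108 CPM in SH (0.36, SE 0.077), without overlap. Ttc4, Ahsa2 and Fkbp4 had log2 fold changes of 0.30 (SE 0.074), 0.25 (SE 0.070) and 0.28 (SE 0.082), and Stip1, the adaptor that links HSP70 to HSP90, had one of 0.20 (SE 0.063). In whole ganglia the list had 5 of 16 above 0 and a median of -0.035, and its smallest p was that of Fkbp5 (0.35, SE 0.13), a cochaperone induced by glucocorticoids.

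The subunits of the CCT chaperonin, which folds actin and tubulin, had 8 of 9 above 0 in captured neurons with a median of 0.067. HSP70 cochaperones had 10 of 17 above 0 (median 0.036), led by the ubiquitin ligase Stub1 (0.26, SE 0.090) and St13 (0.16, SE 0.067), with Bag2 on the other side (-0.29, SE 0.13). Genes of folding and stress response in the endoplasmic reticulum had 13 of 20 above 0 (median 0.050), with Pdia4 (0.30, SE 0.083) and Calr (0.22, SE 0.070) higher and Pdia3 (-0.22, SE 0.069) lower. The list of heat shock factors and their regulators had 1 of 6 above 0 (median -0.050), Hsbp1, which binds and restrains the factors, at 0.12 (SE 0.074). Hsf1, Hsf2, Hsf4 and Hsf5 were below 0. Hsf1, the main heat shock factor, measured 9.70, 9.65 and 10.0 CPM in EE, against 10.1, 9.42 and 10.5 CPM in SH (-0.03, SE 0.12). Immediate early genes had 6 of 9 above 0 (median 0.052). The small heat shock protein gene Cryab had a log2 fold change of 0.18 (SE 0.11). No gene of these lists passed the threshold in either preparation. In whole ganglia their counts above 0 were 3 of 9, 7 of 17, 5 of 20, 0 of 4 and 3 of 9 for CCT, HSP70 cochaperones, the endoplasmic reticulum, the heat shock factor list and immediate early genes.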

How the data were processed

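Counts of reads per gene were deposited by the authors for both preparations, and FPKM for whole ganglia; build mm10, TopHat2 2.0.12 and HTSeq 0.6.0 are listed without their roles, per the submitters' processing notes. A second table of captured neurons equals the counts times 1 constant per library (largest relative deviation 5.3e-10) and was not used. The deposited counts were filtered with filterByExpr, scaled with TMM and tested with edgeR 4.0.16 (quasi-likelihood test, Benjamini-Hochberg adjustment, threshold 0.05) in R 4.3.3, each preparation in its own fit and the difference in a joint fit. DESeq2 1.42.0 was an alternative, as were other filters, scalings and left-out libraries. Reads in no gene (47.0 to 47.6% in whole ganglia, 28.0 to 36.3% in captured neurons) stayed out. The common biological coefficient of variation was 0.0741 in whole ganglia and 0.121 in captured neurons.

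Positions came from GENCODE vM21 (GRCm38) and upstream sequences from RefSeq (GRCm38.p6). The whole-ganglion libraries with the same replicate number shared a sequencing lane per the labels, and their deviations correlated at 0.457, 0.291 and 0.012. The members, lists, motifs and tests were chosen with earlier results of these data known. Genes were named by a rule: up to 6 members with the smallest p in each direction in each preparation, 3 in the difference, the 8 highest by FPKM, a list of well-known members, and up to 4 genes of each list. Members described for their non-overlapping groups, and Dnaja4, Dnajb11, Dnajb12, Dnajb14, Dnajc1, Dnajc10, Dnajc22, Hspa4, Hspa13, Hspb7 and Hspb11, were chosen after their values were seen.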

Additional observations from a re-analysis of the deposited data

How the results depend on the processing

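In captured neurons the count of members past the threshold was 2 of 55 with DESeq2 (4.43% of all genes passed), 3 of 80 with no filter (2.48%), 1 of 65 within lane 3 alone (4.06%), 1 of 64 at an adjusted p under 0.1 (0.655%), and 0 to 1 with each library left out, where the 1 came without EE replicate 1 (3.64% of all genes). For the difference it was 1 of 51 with DESeq2 (1.26% of all genes) and 0 to 1 with a library left out. Medians were taken over the members tested with all libraries, less those that a stricter filter dropped. Within lane 3 alone the captured medians were 0.061 for all members, 0.043 for Dnaja, 0.11 for Hspd1 and Hspe1, 0.084 for Hsp90 and 0.107 for members with a heat shock element. With a library left out, captured medians ran from 0.068 to 0.111 for all members, from 0.012 to 0.129 for Dnajb, from 0.042 to 0.248 for Hspb, from 0.104 to 0.203 for Hsp90 and from 0.127 to 0.237 for members with the element. In whole ganglia they ran from -0.020 to 0.013 for all members, from -0.00168 to 0.060 for Dnaja, from -0.033 to 0.011 for Dnajb, from -0.015 to 0.023 for Dnajc, from -0.044 to 0.021 for the HSP70 group, from -0.036 to 0.053 for Hspb and from -0.060 to -0.0023 for members with the element. The median of the difference ran from 0.047 to 0.123, and was 0.10 with library size alone. In whole ganglia the median over all members was -0.016 both with library size alone and with no filter. That of the HSP70 group was -0.027 with length and GC corrected. At an average log2 CPM of at least 3, that of Hspb was -0.054, over 3 of its 6 members. That of members with the element was -0.061 with library size alone and -0.059 with no filter. At an average log2 CPM of at least 3 it was -0.034, over 11 of the 13 members. The causes were not tested. With the replicate block, the whole-ganglion median over all members was -0.0044 and no member's call changed; with the block and the length and GC correction the HSP70 group's median was -0.028. In captured neurons same-numbered libraries correlated at 0.204, -0.036 and 0.296, and the block left 0 members past the threshold and a median of 0.092. Of named values under the alternatives, the sign changed in 34 of 533 in captured neurons, 37 of 500 in whole ganglia and 9 of 504 for the difference. Called were 6 in captured neurons and 2 for the difference, and none of these was reversed. In whole ganglia 0 were called, so a called value could not be reversed there. The motif group and the counts of non-overlapping groups, and medians over one set of members, were computed under alternatives or rules chosen after seeing the data.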
